A study of Rattus norvegicus with 6 samples.

Results

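The genes described here encode the large enzyme families that modify and conjugate drugs, toxins and steroids: the cytochrome P450 families Cyp1 to Cyp4, the UDP-glucuronosyltransferases Ugt1 and Ugt2, the glutathione S-transferases (Gst) and the cytosolic sulfotransferases (Sult). Members were the rat genes whose symbol begins with one of these family names and for which an array probe carried a RefSeq accession, and each gene was represented by its brightest probe. This gave 90 genes, with 109 probes, of 13900 named genes on the array. There were 3 Cyp1, 28 Cyp2, 4 Cyp3, 12 Cyp4, 3 Ugt1, 9 Ugt2, 19 Gst and 12 Sult genes.

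Jejunal RNA of male Sprague-Dawley rats aged 6 weeks and weighing 200 ± 20 g was hybridised to Agilent rat arrays in 1 colour, 3 per group, to find which genes change under a combined heat and shaking stress. Control rats were kept at 25°C without shaking. Rats of the group named S3d were held at 35°C and vibrated at 0.1 g for 2 h a day over 3 days. Each sample was RNA pooled from 3 rats out of 10 per group by the labels, although the methods of the study describe 6 per group, so animals cannot be told apart within an array, and the minced, saline-rinsed pieces held every layer of the gut wall. Nothing in the labels ties a pool to separate cages or days, so p-values measure the spread between these pools only.

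The group labels of the deposited scanner files and of the deposited normalized table are exchanged against each other: each of the 6 columns of the table matched, in rank order over probes, the scanner file that has its replicate number but the other group's label. The scanner labels were kept, and which labels are right was not settled. The normalized table, whose direction is that of the study, gave the opposite sign in 65 of the 73 members tested below and the same sign in 8. The study also measured selected genes by PCR and describes them as moving the way its arrays did; those PCR data were not analysed here, but as described they run with the labels of the table and not with those kept. Every fold change below is labelled S3d minus labelled control, and none can be read as the direction of the stress response. The 75th percentile of the spot intensity ranged from 414.4 to 430.1 in the arrays labelled control and from 1456.1 to 1565.7 on those labelled S3d, and 69.1% to 73.7% and 77.5% to 81.5% of spots were well above background. Each group had a slide to itself, with 450 days between the scans of the 2 slides, so slide, scan and group cannot be told apart. S3d replicate 1 stood apart: the summed level of 7 tested exocrine pancreas genes was 1880 times the array's 75th percentile on it and 1.26 to 3.58 times on the other 5 arrays. None of these 7 genes was called with that array in the fit, and without it 4 were called higher and 1 lower. Calls of named genes and counts of markers that change without that array are given both ways. The 13 enterocyte marker genes with a named probe were all above background on all 6 arrays, while no marker of the jejunal segment was tested and the brush border genes Sis and Mgam had no named probe.

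As background, P450 enzymes are membrane-bound haem proteins that add an oxygen atom to a substrate and draw their electrons from the reductase Por. UDP-glucuronosyltransferases then attach glucuronic acid from UDP-glucuronate, glutathione S-transferases attach glutathione, and sulfotransferases attach sulfate from the donor PAPS. In the small intestine these enzymes sit mainly in absorptive enterocytes, where they act on food compounds and oral drugs before these reach the liver. Several are switched on by ligand-sensing transcription factors: the aryl hydrocarbon receptor (Cyp1a1), the pregnane X receptor Nr1i2 (Cyp3a genes), the constitutive androstane receptor Nr1i3 (Cyp2b genes), the fatty acid sensor Ppara (Cyp4a genes) and the oxidant sensor Nfe2l2 (many Gst genes).

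Of the 90 members, 73 had a probe bright enough to be tested, which means that it stood well above background throughout either group. A member was called when its adjusted p was under 0.05 in limma and its fold change was at least 1.5. By this rule 29 members were higher on the arrays labelled S3d, 12 were lower, 6 passed the p alone, and 26 did not pass. The 41 called members were 56.2% of those tested, against 52.5% of all 31363 tested probes. The higher members were 39.7%, against 29.3% of all probes, and the lower members 16.4%, against 23.2%. The 2 groups of arrays did not overlap for 48 members, or 65.8%, against 78.9% of all probes. The members' median log2 fold change was 0.39, and that of all probes was 0.09. The called share was thus near that of the array as a whole. The split between higher and lower calls moved with the scaling: over all probes 55.8% of calls were higher, 43.2% with median centring and 30.7% after normexp background correction, and the 29 higher and 12 lower members became 31 and 8 with quantile normalization, 26 and 14 with median centring, and 7 and 0 after normexp. Quantile normalization gives all arrays the same distribution, median centring replaces the 75th percentile by the median, and normexp models the background from each spot's local surround. Further probes of member genes gave 13 tested values, of which 11 had the sign of the brightest probe and 2 the other.

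Of the tested members, 9 qualified through the arrays labelled S3d alone: Cyp1a2, Cyp2a2, Cyp2d3, Cyp2f4, Cyp4a8, Cyp4f4, Ugt2a1, Ugt2b and Sult2a2. Another 1, Cyp2r1, qualified through the arrays labelled control alone. A difference was thus built into the selection of all of these, and neither their calls nor their p-values support one. Among the 63 members above background on all 6 arrays, 23 were called higher and 11 lower, or 54.0%, against 48.2% of all probes passing that filter. Of these calls 32 were among the 41 given above. Of the 17 members not tested, 13 were above background on no array, among them Cyp2a1, Cyp2g1, Cyp3a2, Sult1e1, which sulfates oestrogens, and Sult2a1, which sulfates bile acids and steroids. Without S3d replicate 1 the called members were 25 higher and 11 lower. In bulk tissue, fewer cells of a type and less RNA per cell cannot be told apart. The summed level of the 13 enterocyte markers was 4620 to 5090 on the arrays labelled control and 2090 to 2130 on those labelled S3d, while the summed level of the 73 tested members was 1050 to 1250 and 927 to 1100. Of the enterocyte markers 7 were lower and 1 higher (7 and 0 without S3d replicate 1), and the median of their log2 fold changes was -0.96, but 0.05 with quantile normalization. Markers of other cells moved as well. Of 4 tested goblet cell markers 3 were lower, among them Tff3 at -2.13 (-0.96 with quantile normalization), and their summed level was 968 to 1020 on the arrays labelled control and 362 to 384 on those labelled S3d. Of 7 proliferating crypt cell markers 2 were higher and none lower (1 higher and 1 lower without S3d replicate 1), with the stem cell gene Olfm4 at 2.87. Their sums were 51.1 to 55.2 and 55.7 to 57.9. Of 5 tested hepatocyte markers 2 were higher and 2 lower. The lower ones were the fibrinogen genes Fga and Fgb, at -3.07 and -3.70. The higher ones, Ahsg at 2.17 and Serpinc1 at 1.07, were tested through the arrays labelled S3d alone. The sums of the 5 were 6.73 to 13 on the arrays labelled control and 1.18 to 2.36 on those labelled S3d. Alb, the defining albumin gene, was above background on no array labelled control. Of 7 smooth muscle markers 1 was higher and 3 lower, and of 8 leukocyte markers 2 were higher and 2 lower. The part of these shifts in the members' results was not tested.

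**Figure D1:**
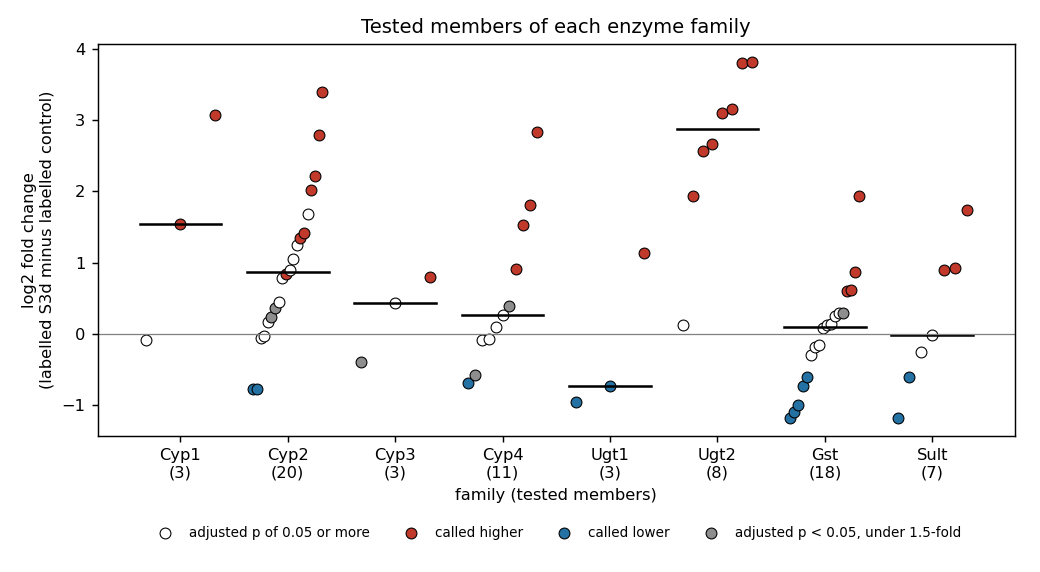
Log2 fold change (labelled S3d minus labelled control; the deposited normalized table carries the opposite labels) of each tested member, grouped by family, with the number tested under each name. Each point is 1 gene, sorted by value within its family, and the black bar is the family median. The Ugt2 median of 2.88 was the highest of the 8 families, and 7 of the 8 tested Ugt2 genes were called higher, 2 of them at background on all arrays labelled control.

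The Ugt2 family held the largest changes. Of its 8 tested genes, 7 were called higher (87.5%, against 29.3% of all probes) and none lower, or 5 of the 6 above background on all arrays. The median log2 fold change was 2.88 (2.84 with quantile normalization, 2.67 with median centring, 1.43 after normexp and -2.84 in the normalized table by its own labels). The measured genes lie on chromosome 14 in the order Ugt2a1, Ugt2a3, Ugt2b, Ugt2b15, Ugt2b37, Ugt2b35, Ugt2b7, Ugt2b1 and Ugt2b10. Only 9 of 13 Ugt2 symbols in RefSeq had a probe, and genes without one were not placed in this order. The Ugt2b enzymes glucuronidate steroids, bile acids and many drugs. The 250 bases before the start of each gene were read from the RefSeq promoter table of the rat assembly GRCr8, which held 78 of the 90 members. The 5 called Ugt2b genes shared 1 identical run of 25 bases there, TGAGCAATGCAAGTTATATTTTAAC, which was the longest run common to all of them. Searched exactly on both strands, it occurred in 6 of 27457 promoter windows of the genome (0.0219%), and the gene that is no member here was Ugt2b7l1. The windows below are shown to set the 5 genes with the run beside Ugt2b10, Ugt2b1 and Ugt2a3. Of these, Ugt2b10 was not called, Ugt2b1 was not tested, and Ugt2a3 was called. Capitals mark the bases equal to the shared run, or to its best ungapped match in Ugt2b10, Ugt2b1 and Ugt2a3, and all lie on the + strand of GRCr8.
Ugt2b15, chr14:21122758-21122842: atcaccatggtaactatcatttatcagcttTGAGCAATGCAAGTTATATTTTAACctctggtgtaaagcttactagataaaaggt
Ugt2b37, chr14:21172040-21172124: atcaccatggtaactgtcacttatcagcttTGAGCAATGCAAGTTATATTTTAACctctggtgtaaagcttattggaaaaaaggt
Ugt2b, chr14:20985345-20985429: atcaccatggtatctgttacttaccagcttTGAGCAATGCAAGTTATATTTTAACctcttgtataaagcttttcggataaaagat
Ugt2b35, chr14:21208324-21208408: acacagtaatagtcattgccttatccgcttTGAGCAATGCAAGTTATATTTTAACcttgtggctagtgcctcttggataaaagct
Ugt2b7, chr14:21251415-21251499: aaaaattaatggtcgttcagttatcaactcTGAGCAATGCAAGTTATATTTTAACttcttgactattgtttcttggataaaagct
Ugt2b10, chr14:21462734-21462818: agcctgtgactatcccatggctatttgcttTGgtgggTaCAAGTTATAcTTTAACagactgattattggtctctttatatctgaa
Ugt2b1, chr14:21378768-21378852: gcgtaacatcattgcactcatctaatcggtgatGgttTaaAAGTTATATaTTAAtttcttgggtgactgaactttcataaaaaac
Ugt2a3, chr14:20851873-20851957: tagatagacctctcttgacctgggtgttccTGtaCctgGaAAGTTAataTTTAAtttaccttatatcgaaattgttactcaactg

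The run began 66 to 90 bases before the start in the 5 genes that hold it. The best match kept 18 of the 25 bases in Ugt2b10 and 15 of 25 in both Ugt2b1 and Ugt2a3. Over the whole 250 bases, pairs of the 5 genes were 56.2% (Ugt2b and Ugt2b7) to 84.4% (Ugt2b15 and Ugt2b37) identical. Ugt2b10 was 50.5% to 52.4% identical to the 5 genes and Ugt2b1 50.9% to 58.4%, so the ranges of Ugt2b1 and of the 5 genes overlapped. The run was picked from the called genes, so its presence in them is a description; Ugt2a3 was called without it. Ugt2a1 is named only.

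Ugt2b15, an androgen-conjugating enzyme, had log2 levels of -2.47, -2.16 and -2.79 on the arrays labelled control and of 1.75, 1.44 and 0.81 on those labelled S3d, where a level is the log2 intensity minus the array's own 75th percentile. The groups did not overlap, and the log2 fold change was 3.81 (SE 0.278, n = 3 per group, adjusted p = 6.8e-05), a 14.0-fold difference. This was also among the 7 members called after normexp, at 2.34.

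Ugt2b37, the next measured gene on the chromosome, had levels of -0.91, -0.92 and -4.13 on the arrays labelled control and of 1.62, 1.22 and 0.68 on those labelled S3d. Control replicate 3 lay over 3 log2 units below the other control arrays. The log2 fold change was 3.16 (SE 0.907, adjusted p = 0.020), 2.08 without control replicate 3 (adjusted p = 0.0021), and past the p threshold neither without S3d replicate 1 (2.93, adjusted p = 0.057) nor without S3d replicate 2 (3.14, adjusted p = 0.054).

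Ugt2b35 had levels of -0.23, -0.46 and -0.25 on the arrays labelled control and of 3.27, 2.87 and 2.21 on those labelled S3d, which gave a log2 fold change of 3.1 (SE 0.266, adjusted p = 0.00013). Ugt2b7 had levels of 0.89, 0.91 and 0.04 against 3.02, 2.45 and 2.17, a log2 fold change of 1.93 (SE 0.315, adjusted p = 0.0019). Ugt2a3 had levels of -2.79, -2.67 and -2.27 against 0.34, 0.37 and -0.47, a log2 fold change of 2.66 (SE 0.265, adjusted p = 0.00023). In each of these genes every array labelled S3d lay above every array labelled control.

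Ugt2b and Ugt2a1, the latter known from the olfactory epithelium, were not well above background on any array labelled control, so only a lower bound can be given for them. The bound sets the bright group's mean against, on each dim array, the higher of the probe's own level and the lowest level well above background. Ugt2b was at least 3.71-fold higher on the arrays labelled S3d (adjusted p = 5.3e-05), and Ugt2a1 at least 1.18-fold higher (adjusted p = 0.00010), a bound below 1.5-fold. Because such probes were tested only through the group in which they are bright, these p-values, and those of the other genes at background in 1 group, are descriptions of the fit. After normexp both had negative log2 fold changes, -1.19 and -1.80, that did not pass the test, and another probe of Ugt2b was above background on no array.

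The last measured gene in the chromosomal order, Ugt2b10, was the only tested Ugt2 gene without a call. Its levels were 2.30, 2.16 and 1.68 on the arrays labelled control, against 2.23, 2.15 and 2.16 on those labelled S3d, so that the groups overlapped. The log2 fold change was 0.13 (SE 0.165, adjusted p = 0.50). Ugt2b1 was above background on 1 array labelled control and 2 labelled S3d and was not tested; its spots on S3d replicate 2 carried an outlier flag and were dropped. Because Ugt2b sequences are alike and the probe sequences were not used here, signal shared between these probes cannot be told apart from signal of each gene.

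**Figure D2:**
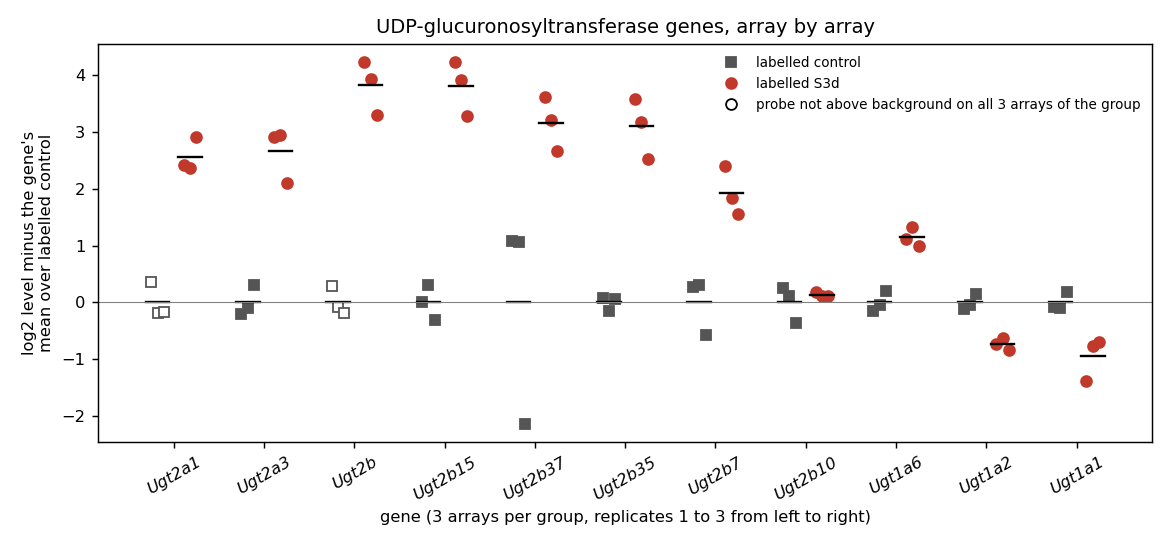
Log2 level of each UDP-glucuronosyltransferase gene on each array, minus the gene's mean over the arrays labelled control, with the group mean as a black bar (n = 3 arrays per group). Open symbols mark a group in which the probe was not above background on all 3 arrays. Ugt2b10 stayed near 0 at 0.13, while the called Ugt2 genes above background on all arrays lay 1.93 to 3.81 above the control mean. Ugt2b and Ugt2a1, at background on all arrays labelled control, have only a lower bound. The 3 Ugt1 genes moved in both directions. In the normalized table, by its own labels, all these signs are turned.

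The 3 measured Ugt1 genes did not move together. They are alternative first exons of 1 locus on chromosome 9, in the order Ugt1a6, Ugt1a2 and Ugt1a1, that are joined to shared downstream exons and have their own promoters. Ugt1a6, which conjugates small phenols, was higher: its levels were -1.33, -1.23 and -0.99 on the arrays labelled control, against -0.06, 0.14 and -0.20 on those labelled S3d (log2 fold change 1.14, SE 0.127, adjusted p = 0.00036). Ugt1a1, the bilirubin-conjugating form, was lower: its levels were 0.22, 0.21 and 0.48 against -1.08, -0.46 and -0.40 (log2 fold change -0.95, SE 0.199, adjusted p = 0.0056). Ugt1a2 was also lower, with levels of 5.47, 5.54 and 5.73 against 4.84, 4.96 and 4.74 (log2 fold change -0.73, SE 0.0972, adjusted p = 0.00076). With quantile normalization Ugt1a2 fell to -0.25 and lost its call (adjusted p = 0.085), and after normexp none of the 3 was called.

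The last 150 bases before the start of Ugt1a6 are shown because its promoter held the aryl hydrocarbon receptor core GCGTG, searched on both strands and marked by capitals, which was in neither of the 250-base windows of Ugt1a2 and Ugt1a1. The antioxidant response core TGACNNNGC was in none of the 3 windows.
Ugt1a6, chr9:96194868-96195017, + strand: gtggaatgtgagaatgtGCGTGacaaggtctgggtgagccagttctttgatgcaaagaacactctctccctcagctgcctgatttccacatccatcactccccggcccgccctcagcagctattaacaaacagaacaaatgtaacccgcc

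GCGTG lay 133 bases before the start of Ugt1a6. Over all members with a window, GCGTG was in 17 of 78 (21.8%), against 27.2% of all windows, and TGACNNNGC in 6 of 78 (7.69%), against 10.2%. These matches describe letters and not bound sites.

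Among the Cyp1 genes, Cyp1a1, which oxidises polycyclic aromatic compounds and is the classical target of the aryl hydrocarbon receptor, was higher. Its levels were 1.63, 1.76 and 0.13 on the arrays labelled control, against 3.40, 4.81 and 4.52 on those labelled S3d. The groups did not overlap although both were widely spread, and the log2 fold change was 3.07 (SE 0.559, adjusted p = 0.0031), with 3.11 after normexp, where it was called too. Cyp1a2, mainly a liver enzyme, was dim: its levels were -5.36, -4.78 and -4.78 against -3.13, -3.20 and -3.95, it was above background on 2 arrays labelled control and all 3 labelled S3d, and its log2 fold change was 1.54 (adjusted p = 0.0026), turning to -1.02 after normexp (adjusted p = 0.26). Cyp1b1, an extrahepatic oestrogen hydroxylase of the same receptor's target set, did not pass: its levels were -3.89, -3.76 and -3.95 against -4.02, -3.95 and -3.90 (log2 fold change -0.09, SE 0.0777, adjusted p = 0.35). The receptor gene Ahr had no named probe.

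The Cyp2 family was the largest, with 20 of 28 genes tested, 7 called higher, 2 lower, and a median log2 fold change of 0.87 (0.75 with quantile normalization, 0.66 with median centring and 0.15 after normexp). Cyp2j10, of a subfamily that epoxidises arachidonic acid, had levels of -4.51, -4.97 and -5.16 on the arrays labelled control and of -1.85, -2.09 and -2.33 on those labelled S3d (log2 fold change 2.79, SE 0.202, adjusted p = 6.6e-05). Cyp2d2, of the debrisoquine hydroxylase subfamily, had levels of -3.48, -2.77 and -2.71 against -1.15, -1.53 and -2.06 (log2 fold change 1.41, SE 0.301, adjusted p = 0.0061). Both were above background on all arrays without overlap, and neither was called after normexp, where the values were 0.09 and 0.17. Cyp2f4, a lung-type naphthalene-oxidising enzyme, was at background on all arrays labelled control and was at least 2.90-fold higher on those labelled S3d (adjusted p = 2.4e-05; fitted log2 fold change -1.38 after normexp, adjusted p = 0.17).

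Cyp2s1, an extrahepatic form, was lower, with levels of 0.13, 0.22 and 0.27 on the arrays labelled control and of -0.37, -0.61 and -0.75 on those labelled S3d (log2 fold change -0.78, SE 0.112, adjusted p = 0.0011). The other lower gene was Cyp2r1, a vitamin D 25-hydroxylase, at -0.77 (adjusted p = 0.0047), above background on 1 of the arrays labelled S3d. Cyp2j4, an intestinal arachidonate epoxygenase, had levels of 5.82, 5.96 and 6.17 against 6.09, 6.04 and 5.64, so that the groups overlapped (log2 fold change -0.06, SE 0.155, adjusted p = 0.75), and its sign turned with quantile normalization, to 0.59, where it was called (adjusted p = 0.022). Cyp2d3 and Cyp2c6v1 were also called higher, at 2.02 (adjusted p = 0.00030) and 0.84 (adjusted p = 0.0044). Cyp2d3 was above background on 2 arrays labelled control, so it was tested through the arrays labelled S3d alone. After normexp the values were -0.62 and -1.07 and did not pass, and with quantile normalization Cyp2c6v1 was at 0.54, below 1.5-fold. A further 5 genes outside the Cyp2b group ranged from -0.03 to 0.45 without a call. Of the untested Cyp2 genes, Cyp2e1, the ethanol-oxidising form, was above background on 1 array, and Cyp2c7 was above background only on S3d replicate 1, the array with the pancreatic transcripts, at -4.85, with -8.44 and -8.10 on the other 2 arrays labelled S3d.

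The Cyp2b genes, the classical phenobarbital-inducible group, were singled out after their values were seen, because control replicate 1 lay far below the other control arrays in 5 of the 6 measured genes. Cyp2b1 had levels of -0.39, 1.64 and 2.18 on the arrays labelled control and of 2.85, 2.99 and 2.64 on those labelled S3d. Cyp2b2 had levels of 2.28, 4.26 and 4.78 against 4.74, 4.78 and 4.52, and Cyp2b21 of -0.88, 1.19 and 1.78 against 1.79, 1.87 and 1.59. Control replicate 1 was thus the low array in all 3 genes. Its level lay below the mean of control replicates 2 and 3 by -2.30 in Cyp2b1, -2.24 in Cyp2b2, -2.44 in Cyp2b12, -2.37 in Cyp2b21 and -1.70 in Cyp2b15 on the log2 scale, a gap that at most 0.383% of all tested probes reached.

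None of these 5 genes was called with 75th percentile scaling, all arrays and the filter used throughout. Cyp2b1 and Cyp2b15 were called when only probes above background on all 6 arrays were tested. With an intensity trend 9 Cyp2 genes were called higher, against 7. Cyp2b1 had a log2 fold change of 1.68 (SE 0.647, adjusted p = 0.055). Without control replicate 1 it was 0.92 and called (adjusted p = 0.011), and without control replicate 3 it was 2.20 and called (adjusted p = 0.023), as it was with quantile normalization at 1.82 (adjusted p = 0.042). Cyp2b15 behaved alike, at 1.25 (adjusted p = 0.057), 0.69 without control replicate 1 (adjusted p = 0.022) and 1.66 without control replicate 3 (adjusted p = 0.021). Cyp2b2, Cyp2b21 and Cyp2b12 had log2 fold changes of 0.90, 1.05 and 0.79, and of 0.16, 0.26 and -0.02 without control replicate 1, none of them past the test. Of 3 further probes of Cyp2b2, 2 were called higher, at 2.25 and 1.74, and the other was at 0.75 (adjusted p = 0.34). A further probe of Cyp2b21 was called higher at 2.61 (adjusted p = 0.020), above background on 2 arrays labelled control. Control replicate 1 was the lowest array on each of these further probes. The remaining gene, Cyp2b3, differed from these: its levels were -4.70, -4.23 and -4.62 against -2.16, -2.44 and -2.28 (log2 fold change 2.22, SE 0.148, adjusted p = 5.0e-05), although after normexp it was -0.17 (adjusted p = 0.85).

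**Figure D3:**
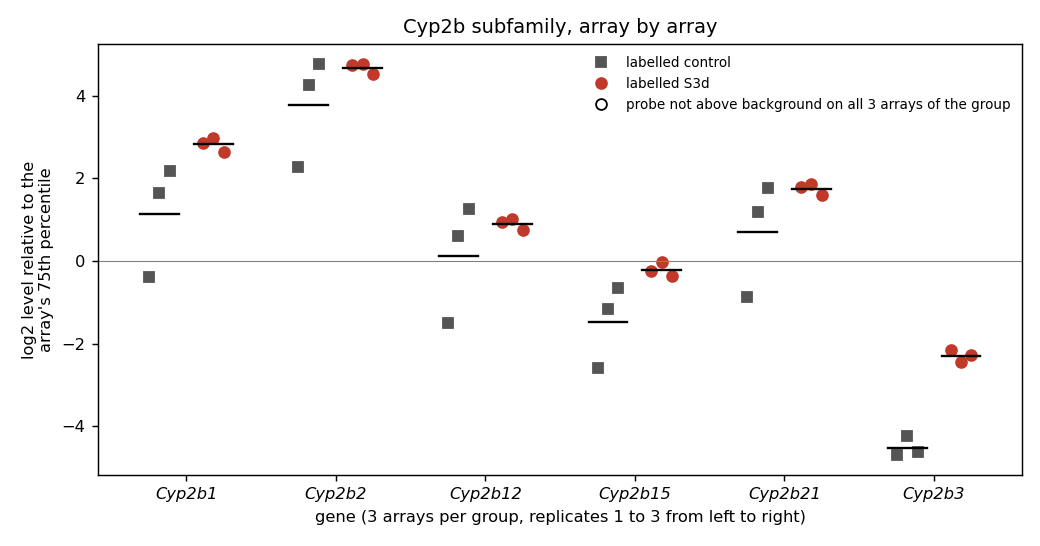
Log2 level of the 6 Cyp2b genes on each array, relative to the array's 75th percentile, with replicates 1 to 3 of each group from left to right and the group mean as a black bar. Control replicate 1 was the lowest array in Cyp2b1, Cyp2b2, Cyp2b12, Cyp2b15 and Cyp2b21, with Cyp2b2 at 2.28 against 4.26 and 4.78 in the other control arrays. Levels of different genes come from different probes and cannot be set against each other.

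The Cyp3a genes encode the main drug-oxidising P450 enzymes of the gut. Of the 3 tested, Cyp3a18 was higher, with levels of 3.27, 3.43 and 3.15 on the arrays labelled control and of 4.17, 4.16 and 3.92 on those labelled S3d (log2 fold change 0.80, SE 0.109, adjusted p = 0.00089). Cyp3a62, an intestinal form named after its values were seen, had levels of 4.52, 5.08 and 5.19 against 5.33, 5.51 and 5.26 and was not called (log2 fold change 0.43, adjusted p = 0.082), but it was called with quantile normalization at 0.92 (adjusted p = 0.0077). Cyp3a9 had levels of 6.70, 7.03 and 7.18 against 6.49, 6.75 and 6.47, which overlapped. Its log2 fold change of -0.40 passed the p (SE 0.146, adjusted p = 0.047) below 1.5-fold, was called at -0.60 with median centring (adjusted p = 0.0079), and turned to 0.36 with quantile normalization (adjusted p = 0.094). No direction of Cyp3a9 thus held under all scalings.

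The Cyp4 genes hydroxylate fatty acids and eicosanoids at the end of the chain. Of 11 tested, 4 were higher (36.4%, against 29.3% of all probes) and 1 lower (9.09%, against 23.2%). The median of 0.27 turned to -0.09 with quantile normalization. Cyp4a1, the peroxisome proliferator-inducible lauric acid hydroxylase, had levels of -0.40, -0.17 and -0.38 on the arrays labelled control and of 1.80, 1.52 and 1.18 on those labelled S3d (log2 fold change 1.81, SE 0.169, adjusted p = 0.00017) and was called after normexp too, at 1.77. Its relatives Cyp4a2 and Cyp4a3 were at -0.07 and 0.10 and did not pass, and Cyp4a8 was at 0.39 below 1.5-fold. Cyp4v3 had levels of -2.68, -2.54 and -2.59 against -0.95, -1.05 and -1.22 (log2 fold change 1.53, SE 0.0917, adjusted p = 3.6e-05). Cyp4f17 was higher on the arrays labelled S3d by 0.91 (adjusted p = 0.00048), turning to -0.51 after normexp (adjusted p = 0.47).

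The Cyp4f enzymes inactivate leukotrienes. Cyp4f4 was at background on all arrays labelled control and at least 2.94-fold higher on those labelled S3d (adjusted p = 0.00016; fitted log2 fold change -1.34 after normexp, adjusted p = 0.18). Cyp4f6 was lower, with levels of 4.88, 4.99 and 5.03 against 4.59, 4.16 and 4.07 (log2 fold change -0.69, SE 0.145, adjusted p = 0.0056); with quantile normalization it was -0.31 (adjusted p = 0.080) and after normexp 0.01 (adjusted p = 0.99). Cyp4f5 and Cyp4f1 were not called, at -0.58 (adjusted p = 0.0011) and 0.27 (adjusted p = 0.099), although Cyp4f5 passed 1.5-fold without control replicate 3 (-0.63) or S3d replicate 2 (-0.64) and with median centring (-0.78, adjusted p = 0.00032). With quantile normalization Cyp4f1 was called at 1.22 (adjusted p = 0.00036). Genes of this subfamily were therefore found on both sides.

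Among the glutathione S-transferases, 18 of 19 genes were tested. Of these 4 were higher (22.2%, against 29.3% of all probes) and 5 lower (27.8%, against 23.2%). The median was 0.10, or -0.10 with median centring. Gstp1, the pi-class enzyme, had levels of 8.21, 8.04 and 8.06 on the arrays labelled control and of 7.23, 7.04 and 7.04 on those labelled S3d (log2 fold change -1.0, SE 0.0873, adjusted p = 0.00013). Its call was lost with quantile normalization, at -0.01 (adjusted p = 0.89), and its value in the normalized table was -0.01 as well. A dimmer probe of Gstp1 was at -0.60 (adjusted p = 0.0014). The lower value of this bright gene thus depended on the scaling.

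Gstm2, of the mu class that conjugates epoxides, had levels of 2.68, 2.90 and 3.13 against 1.82, 2.02 and 1.59 (log2 fold change -1.10, SE 0.158, adjusted p = 0.0011). Gstt1, of the theta class that acts on small halogenated compounds, had levels of -0.13, -0.57 and -0.41 against -1.55, -1.65 and -1.45 (log2 fold change -1.18, SE 0.127, adjusted p = 0.00032). Both were lower without overlap. Mu-class Gstm4 and the mitochondrial and peroxisomal Gstk1 were lower by -0.73 and -0.60; without S3d replicate 1 Gstm4 was at -0.54, and without control replicate 3 Gstk1 was at -0.57, both then below 1.5-fold, as was Gstk1 with quantile normalization (-0.49).

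Gstt2 was higher, unlike its theta-class relative. Its levels were 0.21, 0.97 and 0.87 on the arrays labelled control, against 2.71, 2.68 and 2.45 on those labelled S3d (log2 fold change 1.93, SE 0.214, adjusted p = 0.00036), and it was called after normexp at 1.97. A further probe of Gstt2 did not pass, at 0.22 (adjusted p = 0.20), so the probes of the gene disagreed. Gstp3 had levels of -2.27, -2.36 and -2.56 against -1.29, -1.66 and -1.62 (log2 fold change 0.87, SE 0.130, adjusted p = 0.0013), which turned to -0.30 after normexp (adjusted p = 0.64).

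Gstm1 had levels of -0.11, 0.00 and 0.20 against 1.06, 0.62 and 0.27, a log2 fold change of 0.62 (SE 0.208, adjusted p = 0.036). The call of Gstm1 was lost without control replicate 1 (0.55, adjusted p = 0.10), control replicate 2 (0.60, adjusted p = 0.088), S3d replicate 1 (0.41, adjusted p = 0.053) or S3d replicate 2 (0.63, adjusted p = 0.077), and with median centring (0.41, adjusted p = 0.11). Alpha-class genes, which also reduce lipid peroxides, included Gsta1, called at 0.60 (adjusted p = 0.00029; below 1.5-fold without S3d replicate 2, at 0.56, and with median centring, at 0.40). Gsta4, which conjugates the lipid peroxidation product 4-hydroxynonenal, had levels of 3.14, 3.35 and 3.42 against 3.50, 3.42 and 3.24 and did not pass (log2 fold change 0.08, SE 0.108, adjusted p = 0.51). Gsta2 was at -0.15 on its brightest probe (adjusted p = 0.37) and at 1.05 on another (adjusted p = 0.0048), so it has no settled value. The 7 remaining Gst genes ranged from -0.29 to 0.30 and were not called, although with quantile normalization Gsta3 was called at 0.81 and Gsto2 at -0.89 (adjusted p = 0.0035 for both), and Gsta2 at 0.92 (adjusted p = 0.0018).

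Of the sulfotransferases, 7 of 12 were tested, and the median was -0.01. Of the 7, 3 were higher (42.9%, against 29.3% of all probes) and 2 lower (28.6%, against 23.2%). Sult1a1, the phenol sulfotransferase, had levels of 0.32, 0.73 and 0.86 on the arrays labelled control and of -0.70, -0.37 and -0.57 on those labelled S3d (log2 fold change -1.18, SE 0.164, adjusted p = 0.00094). Sult2b1, which sulfates cholesterol, had levels of 3.35, 3.44 and 3.50 against 2.97, 2.76 and 2.71 (log2 fold change -0.61, SE 0.0925, adjusted p = 0.0013). Both groups of arrays were apart in each, but Sult2b1 was below 1.5-fold without control replicate 3 (-0.58), without S3d replicate 3 (-0.56) and with quantile normalization (-0.37).

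Sult1c2a had levels of 1.62, 1.47 and 1.09 against 2.53, 2.37 and 1.97 (log2 fold change 0.90, SE 0.195, adjusted p = 0.0065). Sult4a1, a form known mainly from brain, had levels of -4.06, -4.36 and -4.32 against -3.39, -3.28 and -3.32 (log2 fold change 0.92, SE 0.0980, adjusted p = 0.00031), with 0.58 and thus below 1.5-fold with quantile normalization and -1.15 after normexp (adjusted p = 0.19). The third higher gene, Sult2a2, was dim, at 1.74 (adjusted p = 0.031), and its call was lost without S3d replicate 1 (1.5, adjusted p = 0.086), S3d replicate 2, control replicate 1 or control replicate 2 and with quantile normalization (1.26, adjusted p = 0.14). Cyp2a2, at 1.35 (adjusted p = 0.033), likewise lost its call without any array but control replicate 3 (1.29 without S3d replicate 1, adjusted p = 0.079), with quantile normalization (0.72, adjusted p = 0.13) and with median centring (1.14, adjusted p = 0.052). Sult2a2 and Cyp2a2 were each above background on 1 array labelled control and so were tested through the arrays labelled S3d alone. Sult1b1, the main intestinal thyroid hormone sulfotransferase, had levels of 4.56, 4.77 and 4.74 against 4.88, 4.76 and 4.41, which overlapped (log2 fold change -0.01, SE 0.138, adjusted p = 0.97, and 0.40 with quantile normalization).

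**Figure D4:**
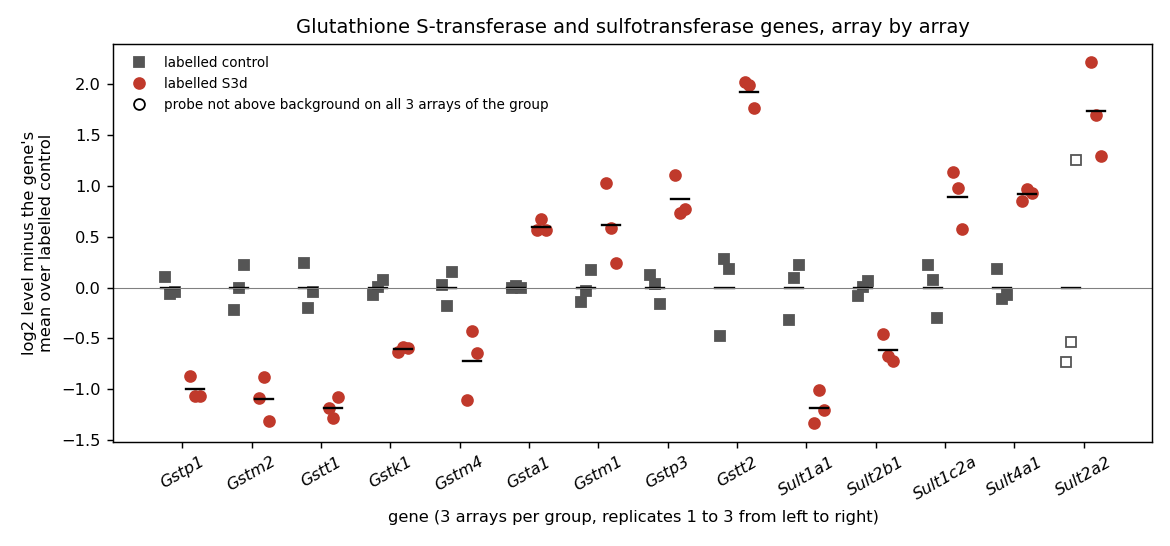
Log2 level of the 14 called glutathione S-transferase and sulfotransferase genes on each array, minus the gene's mean over the arrays labelled control (n = 3 arrays per group, group mean as a black bar, replicates 1 to 3 from left to right, open symbols where the probe was not above background on all 3 arrays of the group). Gstp1, Gstm2, Gstt1, Gstk1, Gstm4, Sult1a1 and Sult2b1 lay below the control mean on every array labelled S3d and the other 7 genes above it, by the scanner labels; the value of -1.0 for Gstp1 was -0.01 with quantile normalization.

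Other genes of xenobiotic handling were taken from lists of 73 genes, of which 65 had a named probe and 63 were tested. Of these 20 were higher (31.7%, against 29.3% of all probes) and 15 lower (23.8%, against 23.2%), 17 passed the p below 1.5-fold, and the median log2 fold change was 0.05. After normexp 6 of the 63 were called, and of those named below only Aldh1a1, Nfe2l2 and Hnf4a kept a call. Among 23 other oxidising, reducing and hydrolysing enzymes, 12 were higher (52.2%) and 3 lower (13%). Fmo1, a flavin monooxygenase, had levels of -2.41, -1.82 and -1.79 on the arrays labelled control and of 0.91, 1.18 and 0.68 on those labelled S3d (log2 fold change 2.93, SE 0.212, adjusted p = 6.7e-05). Aldh1a1, a retinal dehydrogenase, was at 2.92 (SE 0.274, adjusted p = 0.00018), with levels of 0.12, 0.17 and 0.73 against 3.65, 3.38 and 2.76. The carboxylesterase Ces1d was lower, with 2.78, 2.72 and 2.64 against 0.13, 1.06 and 1.10 (log2 fold change -1.95, SE 0.267, adjusted p = 0.00089).

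Among 8 other conjugating enzymes, 5 were lower (62.5%) and none higher. The microsomal glutathione transferase Mgst3 had levels of 9.03, 9.01 and 9.01 against 6.78, 6.62 and 6.74 (log2 fold change -2.30, SE 0.0681, adjusted p = 1.0e-05), and -1.22 with quantile normalization. Of 7 genes that supply the P450 enzymes with electrons or haem, or break haem down, none was higher and 2 were lower (28.6%). These were Por, the common electron donor, at -0.63 (SE 0.111, adjusted p = 0.0026; levels of 3.18, 3.24 and 3.48 against 2.81, 2.64 and 2.55), and Hmox1, the inducible haem oxygenase, at -2.62 (SE 0.212, adjusted p = 0.00010; levels of 3.67, 3.40 and 3.25 against 0.51, 0.71 and 1.24). The value of Por was below 1.5-fold with quantile normalization (-0.41), without control replicate 3 (-0.55) and without S3d replicate 3 (-0.58).

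Of 9 genes for the conjugation donors, 3 were higher (33.3%) and 2 lower (22.2%). Ugdh, which makes the UDP-glucuronate used by the Ugt enzymes, had levels of 2.61, 2.70 and 2.72 against 4.04, 3.83 and 3.64 (log2 fold change 1.16, SE 0.113, adjusted p = 0.00021). Papss2, which makes PAPS, was at -0.48 (adjusted p = 0.024) below 1.5-fold, at -0.68 and called with median centring (adjusted p = 0.0073), and at 0.31 with quantile normalization. Both subunits of the enzyme that limits glutathione synthesis, named after their values were seen, were higher: Gclc by 2.29 (SE 0.181, adjusted p = 9.3e-05), and Gclm by at least 3.88-fold (adjusted p = 2.0e-05), since it was at background on all arrays labelled control. After normexp Gclc was at 0.98 (adjusted p = 0.15) and Gclm at -0.98 (adjusted p = 0.32).

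Of 10 regulators, 3 were higher (30%) and 2 lower (20%). Nfe2l2, the activator of many Gst and glutathione synthesis genes, had levels of 3.06, 3.1 and 3.07 against 4.98, 4.94 and 4.80 (log2 fold change 1.83, SE 0.0715, adjusted p = 1.4e-05). The hepatic and intestinal nuclear factor Hnf4a, named after its values were seen, was at -1.59 (SE 0.0643, adjusted p = 1.5e-05). Nr1i2 was at -0.49 (adjusted p = 0.0060) and below 1.5-fold, and it passed 1.5-fold with median centring (-0.70) and without control replicate 1 (-0.59). Of 6 efflux pumps, 2 were higher (33.3%) and 1 lower (16.7%). Abcb1b, a P-glycoprotein, had levels of -3.89, -3.24 and -3.20 against -0.34, -0.32 and -1.09 (log2 fold change 2.86, SE 0.282, adjusted p = 0.00022). Its paralogue Abcb1a, named after its values were seen, was at background on all arrays labelled control and at least 61.2-fold higher on those labelled S3d (adjusted p = 4.7e-05). After normexp Abcb1a had a log2 fold change of 2.09 (adjusted p = 0.11), below that bound, and Abcb1b one of 0.84 (adjusted p = 0.30).

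The settings of the analysis decided how many of these calls stood. Quantile normalization kept 32 of the 41 member calls in the same direction, and median centring 38. Normexp background correction kept 7, those of Cyp1a1, Cyp4a1, Ugt2b15, Ugt2b35, Ugt2b37, Ugt2b7 and Gstt2, where 5.94% of all tested probes were called. In the normalized table by its own labels 39 members were called, against 48.2% of all probes, and 65 of the 73 tested members had the opposite sign.

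**Figure D5:**
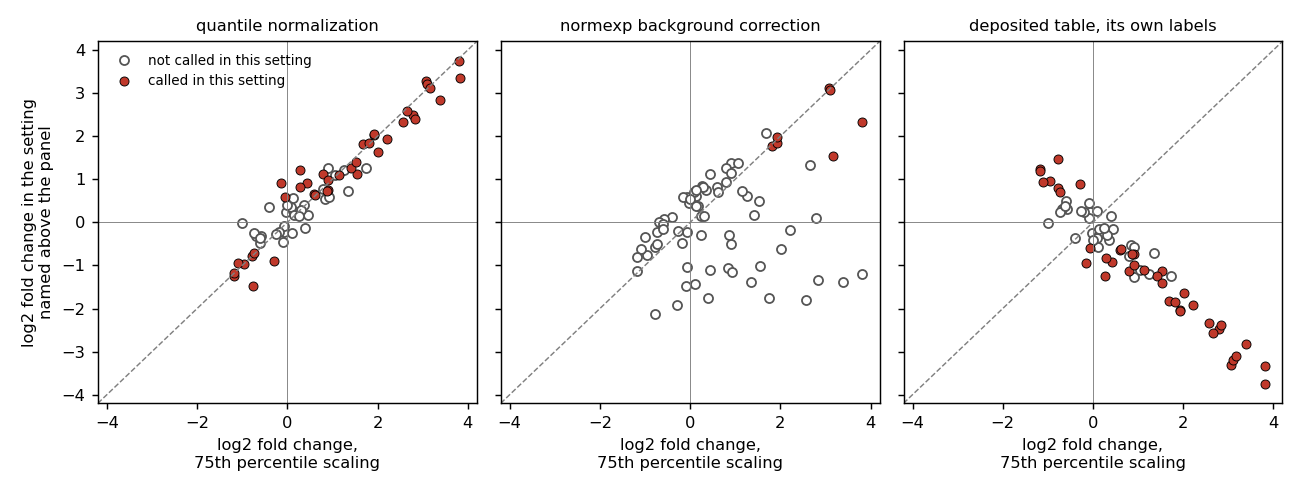
Log2 fold change of the 73 tested members with 75th percentile scaling (horizontal) against the value with quantile normalization, after normexp background correction, and in the deposited normalized table by its own labels (vertical). Filled points were called in the setting of the panel, and the dashed line marks equal values. Points follow the dashed line with quantile normalization (39 called), leave it for many members after normexp (7 called), and follow the opposite diagonal in the deposited table.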

How the data were processed

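The authors deposited the scanner output of 6 one-colour arrays from Agilent Feature Extraction 10.7, whose intensity values are processed signals corrected for background but not scaled between arrays, and 1 table of normalized log2 values whose program is not given in the sources used here. Probes were named through RefSeq accessions. Control and outlier spots were left out, repeated spots averaged, and log2 values centred on each array's 75th percentile. Probes that stood well above background throughout either group (31363 of 41012) were tested with limma 3.58.1 (lmFit, eBayes, no block; R 4.3.3) and Benjamini-Hochberg adjustment. On simulated data for this comparison (31133 probes, 50 changed per size) limma recovered 62% of 1.74-fold and 82% of 4-fold changes, with 3 false calls. The simulation changed few probes and drew no difference between slides, whereas 52.5% of tested probes were called in the data. Its recovery and false calls therefore do not carry over to the real comparison.

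Members, lists and tests were chosen with earlier results of these data known. Named were, in each family, up to 3 rises and 3 falls that were largest among called members above background on all arrays without overlap, 10 preset genes, members at background in 1 group alone, 6 preset related genes and the 3 largest rises and falls among the related genes; other members are named to complete a family, and other genes are marked in the text. Normexp (offset 50) used median spot and local background signals in place of the planned mean signals. Promoters were aligned with Biopython 1.88. The alternatives are listed in the closing section, and the number of arrays limits the precision.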

Additional observations from a re-analysis of the deposited data

How the results depend on the processing

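The alternatives were quantile normalization, median centring, normexp, the deposited normalized table by its own labels, filters on dim probes (none, or all 6 arrays above background), a block for the replicate number, a trend with intensity, the methods' one-way analysis of variance, outlier spots kept, the mean over a gene's probes, no fold threshold, and each array left out. A block for the slide could not be fitted, as each slide carries a single group. Against the main values of 41 called members (29 higher, 12 lower; median 0.39), 16452 called probes and 35 called related genes, normexp gave 7 members (7 higher, 0 lower; median 0.09), 1864 probes and 6 related genes. The normalized table gave 8 members higher and 31 lower with a median of -0.60, and the median was 0.59 with quantile normalization and 0.18 with median centring. The other alternatives kept each count within 1.5 times. The median of all tested probes, 0.09, moved by -0.20 with median centring, which shifts all genes nearly alike, by -0.74 with normexp, which does not, and by -0.11 over probes above background on all 6 arrays, where the set of probes differs and the values stay.

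The replicate numbers share only a number (correlations of deviations 0.020, 0.022 and -0.049); with the block 38 members were called and 16308 probes, and Gstm1, Cyp2a2 and Sult2a2 lost their calls. The methods' one-way analysis of variance put 41 of 73 members and 22805 of 31363 probes under an unadjusted p of 0.05, and 39 and 21749 after Benjamini-Hochberg. Leaving out 1 array gave 36 to 42 called members, 24 to 31 higher, 11 to 13 lower, a median of 0.24 to 0.46, 15980 to 16465 probes and 34 to 37 related genes.

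Of all tested members, 7 changed sign with quantile normalization, 6 with median centring and 24 after normexp. Signs that turned, as log2 fold changes of the named members and related genes other than Gsta3 and Gsto2, were these. With quantile normalization they were Cyp3a9 0.36, Cyp2j4 0.59, Sult1b1 0.40, Papss2 0.31, Cyp4a3 -0.25, Cyp4a8 -0.12 and Gsta2 0.92, with median centring Gsta4 -0.12, Ugt2b10 -0.07 and Cyp4a3 -0.10, and with the mean over a gene's probes Sult1b1 0.08, Papss2 0.18 and Gsta2 0.45. After normexp they were Cyp2b3 -0.17, Cyp4f17 -0.51, Cyp4f6 0.01, Gstp3 -0.30, Sult4a1 -1.15, Cyp3a9 0.12, Cyp2j4 0.59, Sult1b1 0.54, Cyp2f4 -1.38, Cyp4f4 -1.34, Ugt2a1 -1.80, Ugt2b -1.19, Por 0.0023, Papss2 0.28, Cyp1a2 -1.02, Gclm -0.98, Cyp2a2 -1.39, Cyp4a3 -1.43, Cyp4a8 -1.75, Cyp4f5 0.08, Gsta2 0.58, Sult2a2 -1.75, Cyp2d3 -0.62 and Cyp2c6v1 -1.07. In the normalized table they were Cyp1a1 -3.30, Cyp2j10 -2.47, Cyp2b3 -1.92, Cyp2d2 -1.25, Cyp2s1 0.79, Cyp3a18 -1.12, Cyp4a1 -1.84, Cyp4v3 -1.41, Cyp4f17 -0.73, Cyp4f6 0.30, Ugt1a6 -1.10, Ugt1a1 0.97, Ugt1a2 0.25, Ugt2b15 -3.75, Ugt2b37 -3.11, Ugt2b35 -3.20, Gstt2 -2.05, Gstp3 -0.73, Gstm1 -0.62, Gstt1 1.24, Gstm2 0.94, Sult4a1 -0.57, Sult1c2a -1.0, Sult1a1 1.18, Sult2b1 0.37, Cyp1b1 0.46, Gsta4 -0.36, Cyp2f4 -2.83, Cyp4f4 -2.38, Ugt2a1 -2.33, Ugt2b -3.33, Nr1i2 0.32, Nfe2l2 -2.18, Por 0.41, Ugdh -1.43, Fmo1 -2.87, Aldh1a1 -3.07, Abcb1b -2.71, Hmox1 2.47, Mgst3 1.20, Ces1d 1.85, Cyp2b1 -1.82, Cyp2b2 -1.26, Cyp2b12 -0.78, Cyp2b15 -1.21, Cyp2b21 -1.11, Cyp3a62 -0.92, Ugt2b10 -0.26, Cyp1a2 -1.12, Gclc -2.21, Gclm -4.00, Abcb1a -6.96, Hnf4a 1.59, Ugt2a3 -2.58, Ugt2b7 -2.03, Cyp2a2 -0.71, Cyp2r1 1.48, Cyp4a2 0.24, Cyp4f1 -1.25, Cyp4f5 0.31, Gsta1 -0.65, Gstk1 0.49, Gstm4 0.71, Sult2a2 -1.25, Cyp2d3 -1.63 and Cyp2c6v1 -0.53. Among the same named genes, leaving out an array turned Sult1b1 (-0.10 to 0.13), Cyp2j4 (-0.14 to 0.08), Gsta4 (-0.00029 to 0.16), Ugt2b10 (-0.05 to 0.26), Cyp2b12 (-0.02 to 1.36), Cyp4a2 (-0.42 to 0.11) and Cyp4a3 (-0.13 to 0.32) within the ranges given. Other members, such as Cyp2d4 and Sult1c2, turned as well. The causes were not tested.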
